A study of Mus musculus with 120 samples.

Results

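Wild-type epithelial cells of the mouse endolymphatic sac were split by the transcription factor gene Foxi1 and compared across all genes. The sac is the blind end of the inner ear's fluid system, and the cells were taken at E14.5, in mid-gestation. Cells entered when they had at least 1000 gene entries above 0 and an FPKM (fragments counted per length of transcript and per depth of the cell) of at least 1 for Epcam, an epithelial adhesion protein. This kept 55 of the 58 wild-type cells, out of 120 cells in the series. Of these, 22 cells with Foxi1 at an FPKM of at least 1 are called Foxi1-positive, and the 33 others Foxi1-negative. Each cell was sequenced on its own by Smart-seq2, a full-length method for single cells. The other 62 cells came from Sox9Y440X/+ embryos of the same age, heterozygous for a stop mutation of the transcription factor gene Sox9. The labels give no strain, sex or number of embryos.

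Because no label ties a cell to an embryo, each genotype counts as 1 sample, cells are not replicates, and no test was made. Differences are given as the mean of log2(FPKM + 1) over Foxi1-positive cells minus that over Foxi1-negative cells, with the SD over cells, and a gene is called higher or lower when the difference is at least 1 log2 unit. On this scale the change of low genes is understated, and a difference from a group listed at 0 is no fold change. A gene is called detected in a cell at an FPKM of at least 1. Intervals for shares of cells are exact (Clopper-Pearson, 95%). For a gene detected in no cell of a group, the largest share given as allowed is instead 3 cells out of the group's number. Both cover counting error only.

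Ionocytes are mitochondria-rich epithelial cells that move acid, base and salt across an epithelium. Foxi1, a forkhead factor, switches on their genes in the kidney, epididymis, airway and inner ear. In the endolymphatic sac these include the chloride-bicarbonate exchanger pendrin (Slc26a4) and subunits of the vacuolar proton pump, and mice without Foxi1 or Slc26a4 have a swollen endolymph space and are deaf. The rest of the sac epithelium makes secreted matrix, such as Oc90, the main protein of the calcium carbonate crystals (otoconia) of the balance organs.

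The cells were chosen by their Foxi1 and Epcam levels, so those values are a description. Foxi1 lay between 7.19 and 1726 FPKM in the positive cells, with a median of 269. The lowest positive cells, numbers 7, 53 and 14, had 7.19, 16.6 and 17.9. Of the 33 negative cells, 32 were listed at 0 and cell 35 had 0.423, so no cell lay near the limit of 1. Epcam lay between 182.5 and 1297 FPKM in positive and between 207 and 1326 in negative cells. Of epithelial genes the choice did not use, Spint2, an inhibitor of membrane serine proteases, was detected in all 55 cells. The keratin gene Krt18 was detected in 22 of 22 and 32 of 33. Both were named after their values were seen. On a list of 31 epithelial junction and identity genes, 28 were detected in at least 10% of the 55 cells, and Ehf was listed at 0 in all. The 3 wild-type cells left out all had Epcam at 0: cell 56 had only 479 entries and 7 detected red-cell markers, cell 27 had 10 mesenchyme markers, and cell 20 had Oc90 at 440 FPKM.

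The positive cells had more genes above 0, with a median of 4491.5 entries (1209 to 6331) against 3070 (1543 to 5732) in negative cells. The number of reads behind a cell is unknown, since the values are estimates that cannot be turned back into reads. The sum of FPKM over all genes lay between 358250 and 560977 in 53 of the 55 cells, and was 1749110 in cell 10 and 4444520 in cell 31, both Foxi1-positive. The 37 genes of the mitochondrial genome had no value above 0 in these cells. No pair of cells looked like a repeat of one library (highest correlation 0.536).

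The promoters of Foxi1, Slc26a4 and the proton pump subunits Atp6v1b1 and Atp6v0a4 are shown as the textbook set of Foxi1-dependent ionocyte genes. Of the 11 Foxi1-positive cells with Slc26a4 detected, 11 also had Atp6v1b1 and 9 had Atp6v0a4. Atp6v1b1 had a median of 73.3 FPKM in these 11 cells, and its lowest value, 1.19, was near the limit of 1. In the 11 positive cells without Slc26a4, each of these subunits was detected in 2. Each sequence is from RefSeq (GRCm38.p6) and runs 5′ to 3′ on the gene's strand, from 250 bases before to 50 after the start of transcription. Capitals mark the forkhead letters TGTTTA or TGTTTG, read on either strand, so that CAAACA is TGTTTG on the opposite strand. In the GENCODE annotation of GRCm38 (mm10) the genes span chr11:34204338-34208089 (Foxi1), chr12:31519827-31559969 (Slc26a4), chr6:83742990-83758855 (Atp6v1b1) and chr6:38048483-38124586 (Atp6v0a4). The windows are chr11:34208040-34208339 (minus strand) for Foxi1, chr12:31559935-31560234 (minus strand) for Slc26a4, chr6:83742767-83743066 (plus strand) for Atp6v1b1 and chr6:38124537-38124836 (minus strand) for Atp6v0a4.
Foxi1: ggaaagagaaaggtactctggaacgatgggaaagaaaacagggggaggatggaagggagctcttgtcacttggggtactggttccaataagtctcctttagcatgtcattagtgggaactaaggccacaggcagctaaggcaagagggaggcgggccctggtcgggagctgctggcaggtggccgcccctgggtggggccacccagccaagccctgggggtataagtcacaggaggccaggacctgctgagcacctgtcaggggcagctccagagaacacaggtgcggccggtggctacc
Slc26a4: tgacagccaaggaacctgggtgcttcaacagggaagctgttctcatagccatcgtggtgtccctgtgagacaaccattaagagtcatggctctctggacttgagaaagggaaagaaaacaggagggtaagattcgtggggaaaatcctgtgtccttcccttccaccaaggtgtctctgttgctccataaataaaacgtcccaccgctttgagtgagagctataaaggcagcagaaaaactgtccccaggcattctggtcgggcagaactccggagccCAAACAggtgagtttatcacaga
Atp6v1b1: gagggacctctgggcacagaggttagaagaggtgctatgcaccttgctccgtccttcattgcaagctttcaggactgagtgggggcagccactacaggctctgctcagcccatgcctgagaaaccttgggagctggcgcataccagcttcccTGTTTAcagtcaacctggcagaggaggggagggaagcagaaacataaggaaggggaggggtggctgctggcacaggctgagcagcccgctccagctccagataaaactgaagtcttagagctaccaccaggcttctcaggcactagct
Atp6v0a4: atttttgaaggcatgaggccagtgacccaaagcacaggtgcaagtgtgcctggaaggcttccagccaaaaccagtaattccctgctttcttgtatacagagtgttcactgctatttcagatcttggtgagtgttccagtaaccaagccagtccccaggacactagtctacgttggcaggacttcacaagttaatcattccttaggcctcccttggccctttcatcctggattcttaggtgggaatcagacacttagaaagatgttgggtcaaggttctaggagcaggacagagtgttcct
Atp6v1b1 held TGTTTA at -98 from its start, and Slc26a4 held TGTTTG on the opposite strand at 28 bases after it. The other two windows hold neither run of letters. Such matches are frequent: 28.2% of all 32851 promoters in the table hold at least one of the motifs, as do 19.02% of the promoters of genes that could be compared, 18.99% of those of genes higher in Foxi1-positive cells and 17.3% of those of lower genes. The share with TGTTTA alone was 8.29%, 8.97% and 10.2% in the same 3 sets. A match is a run of letters and not a measured binding site.

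Slc26a4, which exports bicarbonate in exchange for chloride, was among the genes that differed most. It was detected in 11 of the 22 positive cells (50%, interval 28.2 to 71.8%), where it ranged from 245.7 to 2524 FPKM, and in 1 of the 33 negative cells, at 67.6 FPKM in cell 47. The mean log2 level was 4.64 ± 4.79 (SD, n = 22 cells) against 0.18 ± 1.06 (n = 33), a difference of 4.45. Positive cells thus held either a high level of the exchanger or 0, with nothing between. Slc4a9, a related transporter of base, was detected in 7 positive cells, at up to 607.2 FPKM, and was 0 in all negative cells (difference 2.18). These were the called members of a list of 15 anion and bicarbonate exchangers, of which 5 passed the filter of detection in 10% of the 55 cells. Over all 8570 genes that passed, 17.05% were called higher and 2.92% lower. Slc4a9 could pass only through the positive cells. Slc4a1 and Slc26a7, the exchangers of acid-secreting cells of the kidney, were listed at 0 in all 55 cells.

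**Figure D1:**
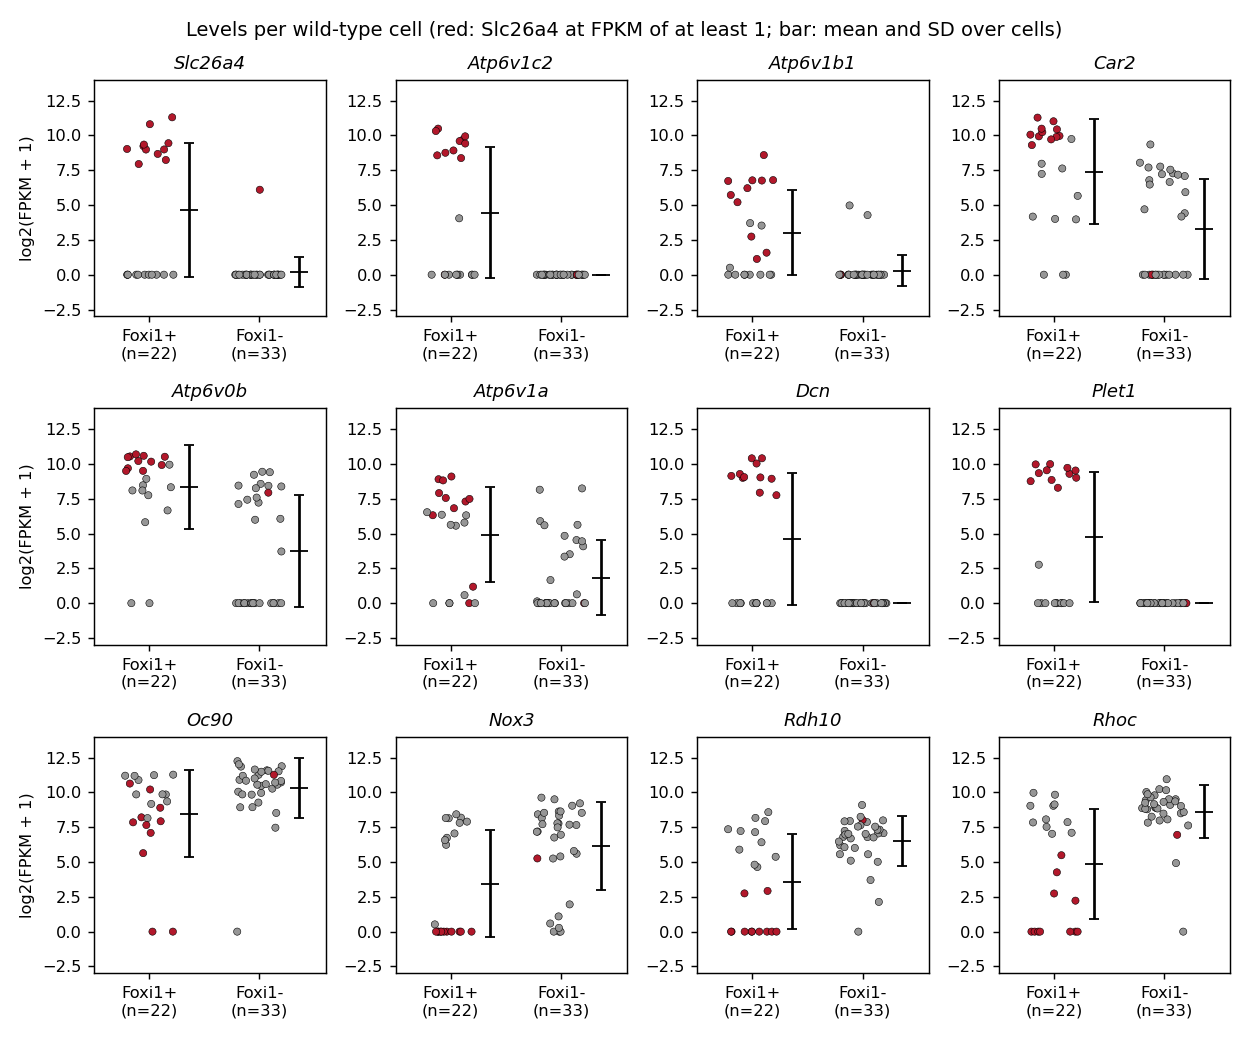
Level of 12 genes in each wild-type cell as log2(FPKM + 1), Foxi1-positive (22 cells) and Foxi1-negative (33 cells). Points are cells, red where Slc26a4 was at an FPKM of at least 1, and bars are the mean and SD over cells; Slc26a4, Atp6v1c2, Dcn and Plet1 are high in about the same red cells of the positive group, which are at 0 for Nox3.

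The 5 proton pump subunits that are found mainly in acid- or base-secreting cells were all higher in Foxi1-positive cells, with a median difference of 3.13 against 0.27 over all 8570 genes compared. Across all of these genes 17.05% were called higher and 2.92% lower. Atp6v1c2, Atp6v0d2 and Atp6v1g3 were detected in no negative cell, so they could pass the filter only through the positive cells. Their part in the count and the median is a description. The same holds for each gene given below as detected in no negative cell. Atp6v1c2, a C subunit of the pump's cytosolic part, was detected in 11 of 22 positive cells, with a median of 7.78 and a highest level of 1437 FPKM, and in 0 of 33 negative cells, which allows a share of up to 9.09% (3 of 33). Atp6v0d2 and Atp6v1g3 were each detected in 10 positive and no negative cell (differences 3.67 and 2.87). Atp6v0a4, the a4 subunit of the membrane part, was detected in 11 positive cells, at up to 921.5 FPKM, and in 1 negative cell, at 45.6 (difference 3.13). Atp6v1b1, the B1 subunit, was detected in 13 positive cells at up to 384.8 FPKM and in 2 negative cells at up to 30.4 (difference 2.72). For these 5 genes the positive group ran from 0 up, so the groups overlapped at 0.

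The pump's general subunits were also higher as a set. Of 17 widely expressed subunits and accessory proteins, all passed the filter, 12 were called higher and none lower, with a median difference of 2.06. Atp6v0b, of the membrane rotor, was the subunit that differed most: it was detected in 20 positive cells, with a median of 721.8 FPKM, and in 16 negative cells, with a median of 0 and a highest value of 691.3 (difference 4.62). Atp6v1a, the catalytic subunit, was detected in 16 and 12 cells, with medians of 78.5 and 0 FPKM (difference 3.08). The common C and d subunits went the other way in value, without being called: Atp6v1c1 differed by -0.58 and Atp6v0d1 by -0.34, while their restricted counterparts Atp6v1c2 and Atp6v0d2 differed by 4.46 and 3.67. For the B pair both were higher, Atp6v1b2 by 2.07 and Atp6v1b1 by 2.72.

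Other acid-base genes were among those that differed most. Car2, the cytosolic carbonic anhydrase that makes bicarbonate and protons from carbon dioxide, had a median of 736.3 FPKM in positive cells (detected in 19) and 0 in negative cells (detected in 16, up to 652). Its difference was 4.12, from 7.40 ± 3.76 to 3.28 ± 3.56, so it was neither restricted to nor present in all Foxi1-positive cells. Car12, an enzyme of the cell surface, was detected in 11 positive and 0 negative cells (difference 2.14). These 2 were the called ones among 3 carbonic anhydrases that passed the filter, of 13 measured. Over all 8570 genes compared, 17.05% were called higher and 2.92% lower. Insrr, a receptor that senses alkali, was detected in 11 positive cells at up to 259.2 FPKM and in no negative cell (difference 3.38). Hepacam2, an adhesion protein also known from kidney intercalated cells, was detected in 8 and 0 cells (difference 2.71), and Slc9a3r1, a scaffold of apical transporters, in 18 and 14 (difference 2.91). They were the called members among 6 that passed of 15 acid-base and intercalated-cell genes. Car12, Insrr and Hepacam2 could pass the filter only through the positive cells. Rhcg, an ammonia channel of those kidney cells, and the vasopressin receptor gene Avpr1a were listed at 0 in all 55 cells.

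Of 20 chloride and potassium channel genes, 9 passed the filter and 2 were called higher, a share near the 17.05% over all genes. Bsnd (barttin), an accessory subunit of chloride channels, was detected in 11 positive cells at up to 428.0 FPKM and in no negative cell (difference 3.32). The potassium channel genes Kcnj15 and Kcnj16 were listed at 0 throughout. Among 26 genes of sodium and water transport, 8 passed and 4 were called higher. Atp1b1, a subunit of the sodium pump, differed by 1.53, Sgk1, a kinase that raises sodium transport, by 3.04, and Nedd4l, a ubiquitin ligase that removes sodium channels, by 2.09.

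Among 14 transcription factor genes of ionocytes and related cells, 4 passed the filter, including Foxi1. Tfcp2l1, a factor of kidney intercalated cells, was detected in 10 positive cells, at up to 137.6 FPKM, and in no negative cell (difference 2.83). Esrrg, a nuclear receptor, differed by 1.08, and by 0.86 without cell 46. Foxi2, a relative of Foxi1, did not pass: it was detected in 4 positive cells, at up to 158.8 FPKM, and in no negative cell. Foxi3, Ascl3, Dmrt2 and Gata2 were listed at 0 in all 55 cells. Outside that list, Hmx2, a homeobox factor of the developing otic vesicle, was detected in 11 positive and 0 negative cells (difference 3.64).

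**Figure D2:**
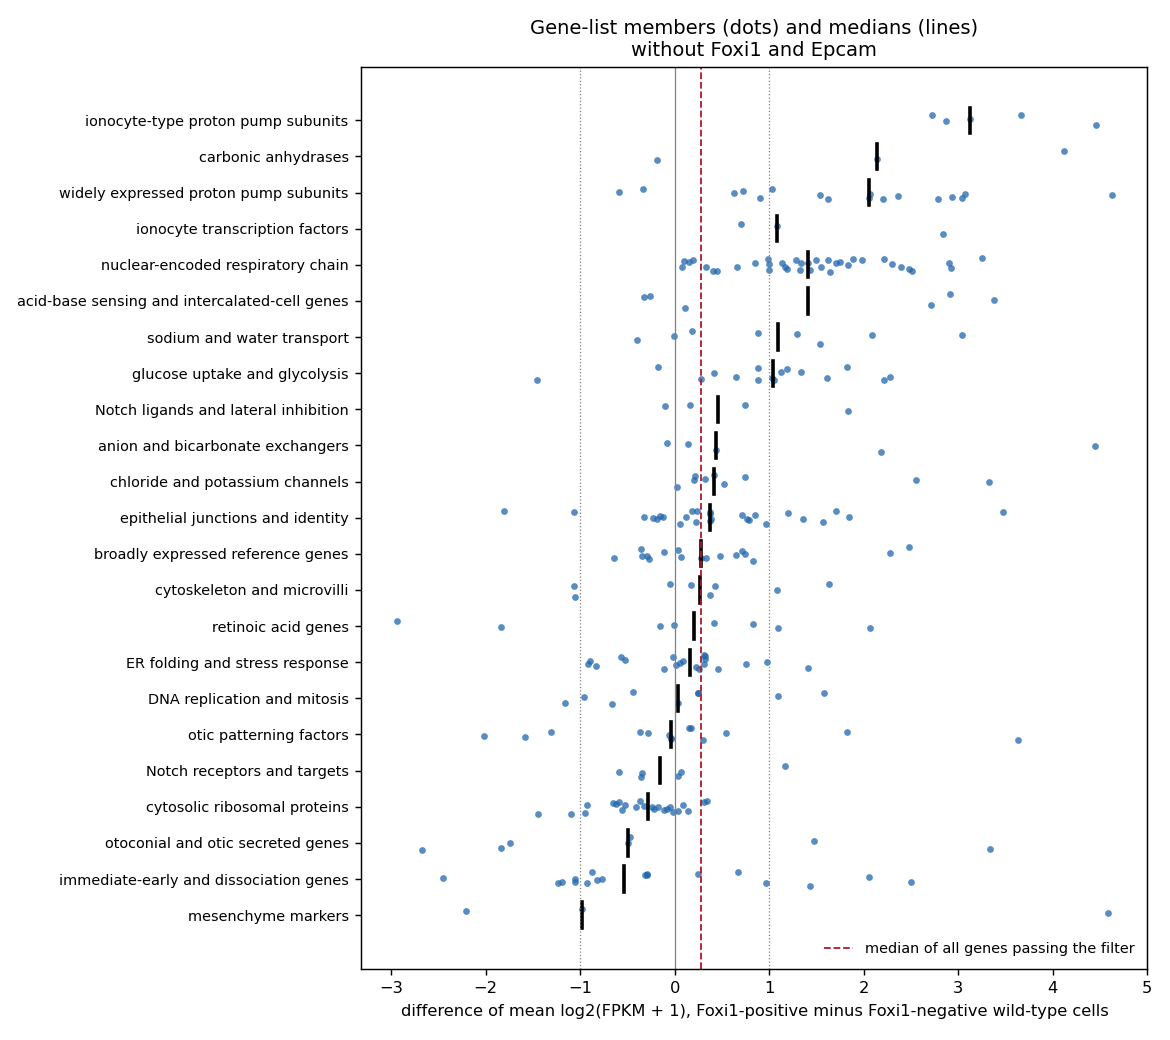
Difference of mean log2(FPKM + 1) between Foxi1-positive and Foxi1-negative wild-type cells for members of each gene list that passed the filter (dots) with the list's median (black line), Foxi1 and Epcam left out. The dashed line is the median of all 8570 genes, 0.27, and dotted lines mark 1 log2 unit. The ionocyte-type pump subunits have the highest median, 3.13. Of these, Atp6v1c2, Atp6v0d2 and Atp6v1g3 passed the filter only through the positive cells.

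Genes of mitochondrial respiration were higher as a group. All 37 nuclear-encoded members passed the filter, all 37 had a difference above 0, and 26 were called higher, with a median of 1.41. Over all 8570 genes, 67.5% had a difference above 0, 17.05% were called higher, and the median was 0.27. Atp5c1, of the ATP synthase, had a median of 401.6 FPKM in positive cells (0 to 884.2) and 114.6 in negative cells (0 to 722.8), a difference of 3.26. Cox8a, of cytochrome c oxidase, was detected in all 22 positive cells, at 354.6 to 2719 FPKM, and in 31 negative cells, at up to 1163 (difference 1.71). The ranges of both genes overlapped between the groups. Ppargc1a, the coactivator that raises mitochondrial gene expression, was detected in 9 positive and 2 negative cells (difference 2.51). Chchd10, Prdx5 and Dld, further mitochondrial proteins named for the size of their difference, differed by 3.77, 3.74 and 3.69. Of the 26 calls, 5 fell below 1 log2 unit when 1 of the 55 cells was left out.

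Of 21 genes of glucose uptake and glycolysis, 16 passed, 9 were called higher and 1, the aldolase gene Aldoc, lower by -1.45. For this and the next 2 lists, the shares over all 8570 genes were 17.05% higher and 2.92% lower. Tpi1, a glycolytic isomerase, lay between 58 and 803.1 FPKM in the positive cells and between 0 and 474.1 in the negative cells (difference 2.21). Of the 9 higher calls, 3 fell below 1 log2 unit when 1 cell was left out. Of 24 genes for cytosolic ribosomal proteins (median -0.28), none was called higher; Rpl7 (-1.45) and Rpl23 (-1.10, or -0.76 without cell 41) were called lower. Of 17 broadly expressed reference genes that passed, 2 were called higher (median 0.28).

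The number of genes detected moved with these groups, and its part in them was not tested. Among cells with 2500 to 5500 entries (12 positive and 24 negative, medians of 4192 and 3200.5 entries), the median of all genes was 0.19 (17.7% higher and 5.91% lower), that of the ionocyte-type pump subunits 2.77, that of the widely expressed subunits 1.55 and that of the respiratory chain 1.25. With each cell scaled to the same sum of FPKM the median of all genes was 0.21, with 1237 genes higher and 300 lower, against 1461 and 250 on the deposited values. When the means were taken before the logarithm, the numbers were 1352 and 1306, so that the share of calls that were higher moved from 85.4% to 50.9%.

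The genes with the largest positive differences held several that are not transport genes. Plet1, a surface glycoprotein, led the list: it was detected in 12 positive cells, at up to 1015 FPKM, and in 0 of 33 negative cells (difference 4.77). Dcn, which encodes the secreted proteoglycan decorin, was detected in 11 positive cells at up to 1354 FPKM and in no negative cell (difference 4.59). Pmp22, a membrane protein best known from myelin and also present at epithelial junctions, was detected in 13 and 0 cells (difference 4.24). Coch, which encodes the inner-ear extracellular protein cochlin, was detected in 9 and 0 cells, at up to 1470 FPKM (difference 3.34). Camk1, a calcium-activated kinase, was detected in 14 and 2 cells (difference 4.23), Serpinb6b and Serpinb9, which inhibit proteases inside cells, differed by 4.20 and 3.82, and Sec23b, of the coat that carries proteins out of the endoplasmic reticulum, by 4.18. The lysosomal membrane protein gene Cln3 (3.85), the carbonyl reductase gene Dcxr (3.84), Tmem117 (3.84) and the heme-binding protein gene Hebp2 (3.79) complete the 20 together with genes described above. Across the 1461 genes called higher (17.05% of the 8570 compared), 46 were below an FPKM of 1 in all 33 negative cells. Such a gene could pass the filter only through the positive cells, which also had more entries. The number is therefore a description. None of the genes called higher, other than Foxi1, separated the groups without overlap.

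Dcn is also a marker of connective tissue, and the rest of that list was compared beside it. Of 16 mesenchyme markers 3 passed the filter; Dcn was higher, Vim, an intermediate filament, was lower (-2.21), and 3 (Lum, Twist1 and Tbx15) were listed at 0 in all cells. In the 11 cells with Dcn, Col1a1 and Col1a2 were detected in 0 cells, and Col3a1, Col6a3 and Fstl1 in 1 cell each. The summed level of the list ran from 23.1 to 1354 FPKM in positive and from 0 to 751.7 in negative cells, Dcn and Vim included. Markers of endothelium, macrophages, red cells, melanocytes, neurons, glia and hair or supporting cells had 0, 1, 0, 2, 0, 2 and 1 genes passing the filter, none of them called. The endothelial genes Pecam1 and Cdh5, the macrophage genes Aif1 and Ptprc, the glial gene Foxd3 and the hair cell gene Atoh1 were listed at 0 in all 55 cells.

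Fewer genes were lower in Foxi1-positive cells. Rhoc, a small GTPase that organises actin, differed most: its median was 86.6 FPKM in positive cells (0 to 1001, detected in 15) and 479.9 in negative cells (0 to 1971, detected in 32). Its mean log2 level was 4.87 ± 3.94 against 8.62 ± 1.89, a difference of -3.75. Rdh10, which makes retinaldehyde on the way to retinoic acid, was detected in 13 of 22 and 32 of 33 cells, with medians of 15.3 and 128.4 FPKM (difference -2.94). Nox3, the superoxide-making oxidase that otoconia need, was detected in 10 and 28 cells, with medians of 0.217 and 178 FPKM (difference -2.68). Every one of these genes overlapped between the groups. The surface peptidase gene Mme, the metalloprotease gene Mmp23, the serine protease gene Klk8 and the microfibril gene Mfap2 differed by -2.86, -2.84, -2.82 and -2.81. Baz2b, a chromatin protein, differed by -2.81, Capg, an actin-capping protein, by -2.78, and Gas1, a Hedgehog co-receptor, by -2.64. The rest of the 15 were AU021092 (-2.61), the acid ceramidase gene Asah1 (-2.50), the cytoskeletal adaptor gene Pdlim1 (-2.50), the immediate-early factor gene Nr4a1 (-2.45) and the matrix gene Emid1 (-2.37).

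Oc90 remained high in both groups. It was detected in 20 positive cells, with a median of 613.5 FPKM and a highest value of 2471, and in 32 negative cells, with a median of 1678 and a highest value of 4840 (difference -1.83). Of 14 otoconial and secreted otic genes, 7 passed; Oc90, Nox3 and the protease gene Prss56 (-1.74) were lower, and Coch and Spp1, the gene for osteopontin (1.48), higher. Of 28 otic patterning factors, 14 passed. The shares over all genes were 17.05% higher and 2.92% lower. Hmx2 and Pax8 (1.82) were higher, and Lmx1a (-2.02), Msx1 (-1.31) and Msx2 (-1.58), factors of the dorsal otic vesicle, lower. Among 8 retinoic acid genes that passed, Rdh10 and Aldh1a3 (-1.84) were lower and Dhrs3, a reductase that lowers retinaldehyde, higher (2.07). The receptor gene Rarg differed by 1.10, and by 0.88 without cell 34.

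Sox9 and Sox10, the factors the study is about, were not called. Sox9 was detected in 12 of 22 and 16 of 33 cells (difference 0.16), and Sox10 in 9 and 17 (difference -0.28). Jag1, a Notch ligand, was detected in 15 positive and 8 negative cells, with a highest level of 118.6 and 39.2 FPKM (difference 1.83). It was the called one of 4 Notch ligands and lateral inhibition genes that passed, of 12 measured; Dll1 and Dll4, which did not pass, were detected in 4 and 5 positive cells and in no negative cell. The receptor gene Notch1 differed by -0.36. For the lists that follow, the shares over all genes were 17.05% higher and 2.92% lower. Several of their shares of higher genes lie near the first. Among 28 epithelial junction and identity genes that passed, 6 were higher, led by the tight junction gene Cldn8 (3.48, detected in 16 and 9 cells), and 2 were lower, among them the keratin gene Krt8 (-1.80). Elf3, an epithelial factor, differed by 1.36 on the mean of logs but by -0.53 as the log2 ratio of mean FPKM + 1. Of 18 immediate-early and dissociation genes that passed, 3 were higher and 5 lower (median -0.54), and 4 of these 8 calls fell below 1 log2 unit when 1 cell was left out. Smaller numbers were called in the other lists: 2 higher and 1 lower of 9 replication and mitosis genes that passed, 1 higher (Manf, 1.41) of 20 genes of endoplasmic reticulum folding, 2 higher and 2 lower of 8 cytoskeleton and microvilli genes, and 1 higher of 6 Notch receptor and target genes. Leaving out 1 cell took 2 of the 3 replication calls, 3 of the 4 cytoskeleton calls, the Notch target call (Hes1) and 2 of the 8 epithelial calls below 1 log2 unit.

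The Foxi1-positive cells were not alike. A split of them by Slc26a4 was chosen after the values were seen, and is a description. The 11 cells with Slc26a4 had Foxi1 between 133.6 and 1726 FPKM, and the 11 without between 7.19 and 608.4. Of 68 ionocyte-list genes (exchangers, carbonic anhydrases, restricted pump subunits, acid-base genes and channels), the cells with Slc26a4 had 10 to 26 detected (median 18), and those without had 3 to 12 (median 7). The negative cells had 0 to 11 (median 5). The median number of entries was 4391 with Slc26a4 and 4998 without it. Among the 11 cells with Slc26a4, the one with 1209 entries had 10 of the genes and the one with 6331 had 26. Over all 22 positive cells, the Spearman correlation of this number of genes was 0.33 with entries and 0.49 with the Foxi1 level. Slc26a4 is itself 1 of the 68 genes, and the part of the number of entries was not tested.

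**Figure D3:**
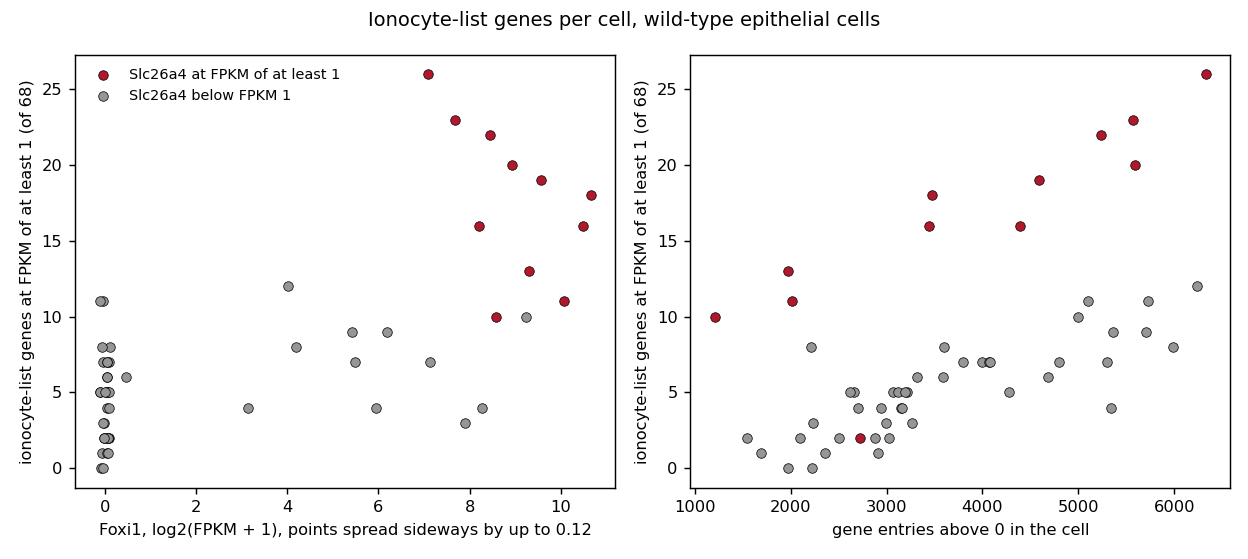
Number of the 68 ionocyte-list genes detected in each of the 55 wild-type cells against the Foxi1 level (left, log2(FPKM + 1)) and against the number of gene entries above 0 (right), red where Slc26a4 was detected. The 11 red Foxi1-positive cells have 10 to 26 of the genes at entry numbers from 1209 to 6331, and the red cell at 2 genes is the Foxi1-negative cell 47.

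All 11 cells with Slc26a4 also had Bsnd, Hmx2, Plet1, Dcn, Atp6v1b1, Car2 and Atp6v0b detected, and 10 of the 11 had Atp6v1c2, Atp6v0d2, Atp6v1g3, Insrr and Tfcp2l1. The lowest level of Atp6v1b1 in the cells with Slc26a4 was 1.19 FPKM, near the limit of 1. In the 11 positive cells without Slc26a4, Bsnd, Hmx2 and Dcn were detected in none, Plet1, Atp6v1c2 and Insrr in 1, Atp6v1b1 in 2 and Car2 in 8. The same split is given for genes that were lower in Foxi1-positive cells and for Sox10, chosen after their values were seen. Nox3 was detected in 0 of the 11 cells with Slc26a4, in 10 of the 11 without and in 28 of 33 negative cells. Rdh10 was detected in 2 of 11, at no more than 6.58 FPKM, against 11 of 11, at 23.9 to 381.4 FPKM, and 32 of 33. Sox10 was detected in 1 of 11, 8 of 11 and 17 of 33, while Oc90 was detected in 9 of 11 (median 229.5 FPKM), 11 of 11 (median 927.7) and 32 of 33. Prss56 was detected in 2 of 11, 10 of 11 and 25 of 33. The 7 otoconial and secreted otic genes that passed the filter did not all share this order. Coch was detected in 9 of 11 cells with Slc26a4, in 0 of 11 without it and in 0 of 33 negative cells. Spp1 was detected in 8, 11 and 23 cells, with medians of 470.5 and 407.4 FPKM in the positive cells with and without Slc26a4. The remaining 2 were Agt (angiotensinogen), in 3, 10 and 20 cells, and the oxidase organiser gene Noxo1, in 1, 5 and 10.

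Individual cells show the range. Cell 46, with the highest Foxi1 level (1726 FPKM), had Slc26a4 at 649.0 and Nox3 at 0. Cell 12, with Foxi1 at 608.4 FPKM and Slc26a4 at 0, had Atp6v0a4 at 66.0, Atp6v1c2 at 15.6 and Nox3 at 131.5. Cells 31 and 34 had Foxi1 at 236.6 and 329.2 FPKM but only 3 and 4 ionocyte-list genes. Cell 31 is the one with the highest sum of FPKM, and with every cell scaled to the median sum its Foxi1 level was 23.9, the fourth lowest of the 22, while that of cell 34 was 330.0 and that of cell 12 was 593.1. In cells 12 and 34 a high Foxi1 level thus came without Slc26a4. Cell 47, the negative cell with Slc26a4, had 2 ionocyte-list genes.

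**Figure D4:**
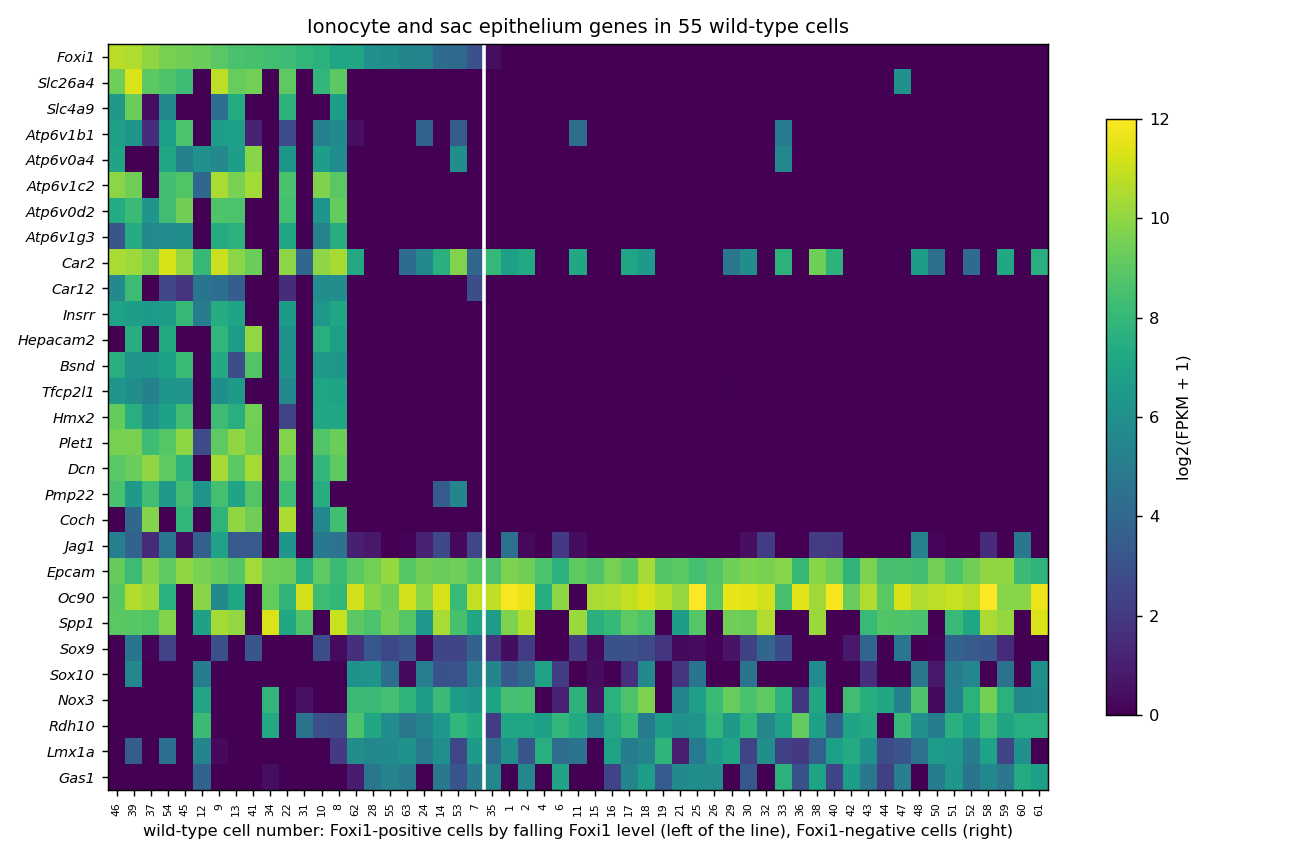
Level (colour, log2(FPKM + 1)) of 29 genes (rows) in the 55 wild-type cells (columns, by cell number), with the 22 Foxi1-positive cells ordered by falling Foxi1 level to the left of the white line. The 11 Foxi1-positive columns with Slc26a4 also hold Bsnd, Hmx2, Plet1 and Dcn and are at 0 for Nox3, and 9 of them have Oc90.

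Over the 22 Foxi1-positive cells the Spearman correlation with the Foxi1 level was 0.71 for Insrr, 0.71 for Slc26a4, 0.61 for Atp6v1c2 and 0.60 for Car2, and -0.38 for Oc90 and -0.48 for Sox10. Such values were not limited to ionocyte-list genes: Cd24a, a surface glycoprotein, had 0.76 and Cdkn1a, an inhibitor of the cell cycle, 0.63. Of 8554 genes, 11 had a correlation at least as high as that of Slc26a4, itself included, and 44 one at least as high as that of Car2. Each rests on 22 cells of 1 sample that share depth and normalization, with many zeros. Foxi1 was also the value that chose the cells, and the levels were not scaled to a common sum of FPKM. The correlations and their ranks are therefore a description. The correlation of Foxi1 with the number of entries was -0.51 over the same cells.

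Xist, the RNA of the inactive X chromosome in females, marks cells of female embryos, and Y-linked genes those of males. Xist was detected in 10 positive and 23 negative cells; reads from Xist and its antisense gene Tsix cannot be told apart without strand. A Y-linked gene was detected in 6 and 4 cells, neither in 6 and 6, and both in 0, so that cells of at least 1 female and 1 male embryo were present in each group. All 20 genes named as higher and all 15 named as lower kept a difference of at least 1 log2 unit in both classes. These were cells with Xist (10 against 23) and cells without (12 against 10). The genes were named from these same 55 cells, so the split is a description and no separate support. Of all genes, 22.8% were higher and 5.40% lower with Xist, and 22.2% and 9.995% without. Slc26a4 differed by 4.14 with Xist and 4.83 without, and Dcn by 4.66 and 4.53. The median of the ionocyte-type pump subunits was 2.93 and 3.74, and that of the respiratory chain 1.31 and 1.24.

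The Sox9Y440X/+ cells, which played no part in choosing the genes, give the same contrast in a second sample. The rule found 38 such epithelial cells, 7 Foxi1-positive and 31 Foxi1-negative, with nearly equal medians of 4520 and 4506 entries. Xist was detected in none of these 38 cells, but in 10 positive and 23 negative wild-type cells. The make-up by sex thus differs along with the genotype, and its part was not tested. Of the 20 genes named as higher in wild type, 20 had a positive difference there and 18 were at least 1 log2 unit higher, where 18.9% of all 9936 genes were. The 2 below were Dcxr (0.86) and Camk1 (0.26). Of the 15 genes named as lower, 14 had a negative difference and 11 were at least 1 log2 unit lower, where 9.35% of all genes were. Asah1 was the exception in sign, at 0.82, and Mme, Klk8 and Nr4a1 differed by -0.65, -0.27 and -0.83. Over all 1405 genes that were higher in wild type and passed the filter there, 576 were higher and 95 lower. Of the 242 lower ones, 38.8% were lower and 8.68% higher.

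**Figure D5:**
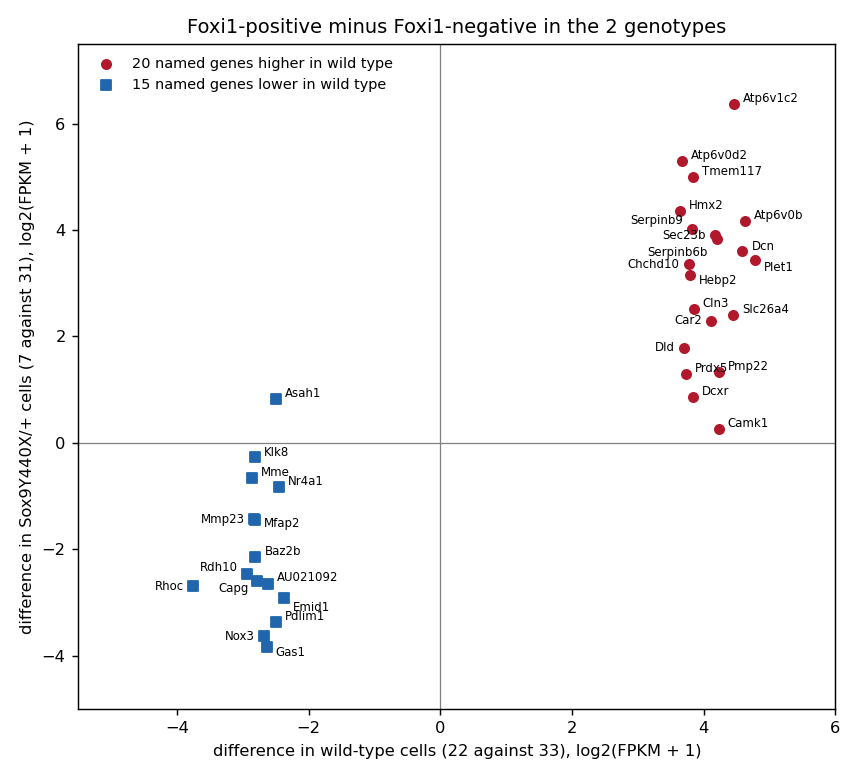
Difference between Foxi1-positive and Foxi1-negative cells in wild-type (x axis, 22 against 33 cells) and Sox9Y440X/+ (y axis, 7 against 31 cells) epithelium, in log2(FPKM + 1), for the 20 genes named as higher (red circles) and the 15 named as lower (blue squares) in wild type. All lie in the quadrants of equal sign except Asah1, which was -2.50 and 0.82.

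Of the 5 ionocyte-type pump subunits, 3 passed the filter in Sox9Y440X/+ cells, and all 3 were higher. None of these 3 was detected in a Foxi1-negative cell there, so each could pass only through the positive cells. That all 3 were higher is therefore a description. Atp6v1c2 was detected in 5 of 7 positive and 0 of 31 negative cells (difference 6.38), Atp6v0d2 likewise in 5 and 0 (5.29), and Atp6v0a4 in 4 and 0 (2.89). The 2 that did not pass were Atp6v1b1, detected in 2 and 1 cells (2.02), and Atp6v1g3, detected in 1 and 0 (0.69, against 2.87 in wild type). Of the 17 widely expressed subunits 12 were higher and none lower, with a median of 2.05. Atp6v1f (-0.035) and Atp6ap2 (0.13) were called higher in wild type alone, and Atp6v1c1 (2.05) and Atp6v0d1 (1.83), whose wild-type differences were below 0, in Sox9Y440X/+ cells alone. The respiratory chain had a median of 1.16 with 23 of 37 genes higher, against a median of 0.08 over all genes. Slc26a4 was detected in 2 of the 7 positive cells (difference 2.41), and Dcn in 3 (3.60). Jag1 was detected in 7 of 7 and 11 of 31 cells (2.96). Hepacam2 and Slc4a9 were detected in 0 of the 7 positive cells, which allows a share of up to 42.9% (3 of 7), and in 0 of the 31 negative ones. No difference between the genotypes was tested.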

How the data were processed

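Cells of the E14.5 endolymphatic sac were sequenced singly by Smart-seq2, per the labels' protocols. The authors deposited 1 table of FPKM values per gene and cell. Per the submitters' processing notes, the build was mm10, and Cufflinks, HTSeq, HISAT2 and SAMtools 0.1.18 were used; their roles, the annotation and any filters are not given in sources used here. The 345 entries that share one of 161 symbols were summed, giving 48371 symbols. The number of entries above 0 in the table equals the gene number in the labels for all 120 cells.

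Groups came from the rule stated at the opening. Differences are of mean log2(FPKM + 1), for 8570 genes detected at an FPKM of at least 1 in 10% or more of the 55 cells. No p-value was computed, since each genotype is 1 sample. Named genes are the 20 largest positive and 15 largest negative differences of genes that 25% or more of the higher group's cells held, with the same sign after scaling to the same total and as log2 ratio of mean FPKM + 1. Symbols of the Gm, mt-, Rik, pseudogene, ribosomal and clone kinds were passed over. Further named genes are Foxi1, Epcam, Slc26a4, Sox9, Sox10, Oc90, Jag1, Notch1 and list members past 1 log2 unit. Other genes are named as background to a list, chosen after their values were seen. The members and the 31 gene lists (498 genes measured) were chosen with earlier results of these data known. The script was tested on simulated data. Some list members are counted but not reported here by name. Gene spans are from the GENCODE annotation, promoter windows and sequences from the RefSeq table, and protein sequences were not used here. Python 3.11.15, numpy 2.4.6, pandas 2.3.3, SciPy 1.17.1 and matplotlib 3.10.9 were used. Alternatives changed the pseudocount, the mean, the scaling, the limits on Foxi1, Epcam and entries, the filter and the Xist class.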

Additional observations from a re-analysis of the deposited data

Results flagged for a closer look

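Differences that pointed opposite ways in the genotypes were looked for among the named genes, at 1 log2 unit or more in each. Ier3, an immediate-early gene, was higher by 2.50 in wild-type Foxi1-positive cells and lower in Sox9Y440X/+ ones (-1.66). Manf, a secreted protein of the stressed endoplasmic reticulum, differed by 1.41 and -1.37. Rarg, a retinoic acid receptor, differed by 1.10 and -1.04, and its wild-type difference fell below the limit, to 0.88, when cell 34 was left out. With 1 sample per genotype and 7 Foxi1-positive Sox9Y440X/+ cells, the differences between the genotypes were not tested. Xist was detected in wild-type cells alone, so the make-up by sex differs along with the genotype.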

How the results depend on the processing

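No paired analysis was possible because a shared number ties no cell of one genotype to a cell of the other, and no test was run. Of 137 named genes past 1 log2 unit, the 1918 values under the alternatives were within 1.5 times of the reported difference in 1451 cases, moved further in 445 and changed sign in 22. In Sox9Y440X/+ cells, 16 changed sign: Asah1 0.82, Atp1b1 -0.18, Atp6v1f -0.035, Cyc1 -0.17, Dhrs3 -0.18, Esrrg -0.17, Ier3 -1.66, Junb -0.53, Manf -1.37, Mcm6 -0.12, Msx1 0.70, Msx2 0.66, Pax8 -0.68, Pgk1 -0.24, Rarg -1.04 and Spp1 -0.56; so did the median of the sodium and water transport list, at -0.16. The others were Elf3 (-0.53 as log2 ratio of mean FPKM + 1), Ndufa4 (-0.037 with 2500 to 5500 entries, -0.53 without Xist), Plekhb1 (0.081 with Xist), Aldh1a3 (0.46 without Xist) and Junb (-0.40 without Xist). The genes higher by at least 1 log2 unit numbered 2974 with a pseudocount of 0.1 and 287 with 10. The genes lower by at least 1 log2 unit numbered 552 and 59 with these, 1306 by the ratio of means, 724 with a Foxi1 limit of 100, 514 with 2500 to 5500 entries, 436 with Xist, 837 without and 929 in Sox9Y440X/+ cells. The median difference of the ionocyte-type proton pump subunits was 1.64 with a pseudocount of 10 and 5.65 by the ratio of means, that of the widely expressed proton pump subunits 1.34 and 1.11, and that of the nuclear-encoded respiratory chain 0.78 by the ratio of means. The cause of these moves was not tested. Leaving out 1 of the 55 cells in turn, chosen after seeing the data, gave 1351 to 1649 higher and 208 to 290 lower genes, and 25 of the 137 named differences fell below 1 log2 unit.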
